A study of Equus caballus with 22 samples.

Results

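Transcripts of the interleukin 1 system were followed through 3 genes, IL1A, IL1RN and IL1R1, in endometrium, the inner layer of the uterine wall, from pregnant and cycling mares. The probes followed were all 14 of the 43603 probes of the horse array that carry a RefSeq transcript of 1 of these genes, and the genes are 3 of the 675 that RefSeq accessions name on the array. IL1A (transcript NM_001082500) has 3 probes, IL1RN (NM_001082525) has 10 and IL1R1 (NM_001081794) has 1. Biopsies came from warmblood mares without any treatment named in the labels. The day 12 pregnant group and the day 12 control group held 6 samples each, 1 of each kind from every mare, and the day 8 pregnant group and the day 8 control group held 5 each in the same way. Pregnant mares were sampled once the embryo had been recovered from the uterus, and controls at the matching day of a cycle without pregnancy. The labels number the mares within each day and do not say whether a number stands for the same animal on both days.

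Interleukin 1 is a signal of tissue damage and infection that also takes part in the dialogue between embryo and uterus. IL1A encodes interleukin 1 alpha, a ligand that stays largely cell-bound and is set free from injured cells. IL1R1 encodes the receptor that passes the signal into the cell and switches on chemokines, prostaglandin synthesis and matrix-degrading enzymes. IL1RN encodes the receptor antagonist, which occupies that receptor without setting off a signal. In the pig, the elongating embryo itself releases a form of interleukin 1 beta into the uterus, and in many species endometrial epithelium, stroma and resident macrophages make parts of the system.

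Levels are given on a log2 scale on which 0 is the 75th percentile of an array's spots, and differences are pregnant minus control within a mare unless another comparison is named. Between 74.2% and 92.9% of the spots of an array were well above background, the mark the scanner software gives to a signal clearly over its local surroundings. Both arrays of a mare lay on 1 slide and were scanned together. The 4 slides of day 12 held no day 8 array and the other 3 slides no day 12 array, so that day and slide cannot be told apart. The level of 1 probe cannot be set against that of another, so levels are compared only between samples. Of the marker genes of endometrial cells, the epithelial gene ESRP1 and the stromal genes DCN and LUM were well above background on all 22 arrays. Because whole biopsies were measured, fewer cells of a type and less RNA per cell cannot be told apart in anything that follows.

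The receptor and its antagonist were measured in every sample, while the ligand was mostly at background. The brightest probe of IL1RN and the single probe of IL1R1 were well above background on 22 of 22 arrays. The brightest IL1A probe was so on 5 of 22 arrays, 3 of 6 day 12 pregnant, 1 of 6 day 12 control, 0 of 5 day 8 pregnant and 1 of 5 day 8 control arrays. Its other 2 probes were well above background on 2 and 4 arrays and did not pass the requirement of 5 arrays for a test, which left 12 of the 14 probes tested. The 9 dimmer IL1RN probes were well above background on 8 to 20 arrays.

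**Figure D1:**
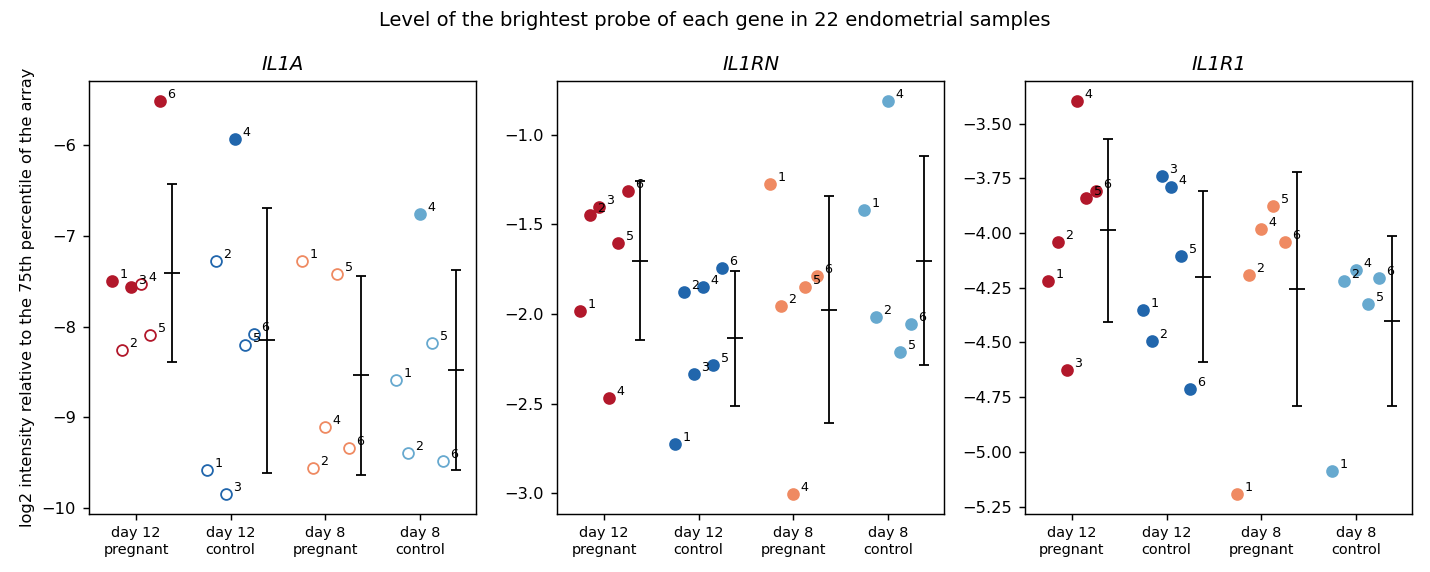
Level of the brightest probe of IL1A, IL1RN and IL1R1 (y axis, log2, with 0 at the 75th percentile of an array) in 22 samples by group (x axis). Numbers are mares, filled points are well above background and open points are not, and bars give the mean ± SD. Most IL1A points are open, and for IL1RN mare 4 is lowest in both pregnant groups and highest in the day 8 control group.

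No member probe passed the test of pregnancy at day 12. Of the 12 tested, 0 passed (limma, Benjamini-Hochberg adjusted p under 0.05), and 0 had an unadjusted p under 0.05, where 0.265% of all 38461 tested probes passed and 4797 had an unadjusted p under 0.05. The smallest adjusted p among the 12 was 0.607. At day 8, 0 of the 12 passed and 1 had an unadjusted p under 0.05, against 0% of all 38457 tested probes, of which 2243 had an unadjusted p under 0.05. For the difference between the pregnancy effects of the 2 days, 0 of 12 passed, against 0.0104% of all probes.

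IL1RN, the antagonist, stood higher in pregnancy in most mares at day 12, by an amount that did not pass the test. Its brightest probe ranged from -2.47 to -1.31 with a median of -1.53 in day 12 pregnant samples, against -2.72 to -1.74 with a median of -2.08 in day 12 control samples. The groups overlapped. The sample of mare 4 was the lowest of the pregnant group and lay below 5 of the 6 controls. The pregnant sample of mare 1 (-1.98) also lay below the controls of mares 2, 4 and 6. Within mares 1, 2, 3, 5 and 6 the pregnant sample was higher, by 0.74, 0.43, 0.93, 0.68 and 0.43, whereas in mare 4 the difference was -0.62. The mean difference was 0.43 ± 0.30 (SE, n = 6 mares, 1.35-fold, 95% confidence interval 0.848 to 2.14-fold, adjusted p = 0.607). With number 4 left out on both days it was 0.64 (adjusted p = 0.0509), the smallest adjusted p of this probe in any alternative tried. That fit also lacked the day 8 pair numbered 4, which otherwise enters the shared estimate of the spread.

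At day 8 the same probe read -1.28, -1.96, -3.00, -1.85 and -1.79 in the pregnant samples of mares 1, 2, 4, 5 and 6, against -1.42, -2.02, -0.81, -2.21 and -2.05 in their control samples. The mare numbered 4 on this day stood apart, with the lowest pregnant and the highest control value of the day, and the groups overlapped. It may not be the animal numbered 4 at day 12. The pregnant sample was higher by 0.14, 0.06, 0.36 and 0.27 in mares 1, 2, 5 and 6, and the difference in mare 4 was -2.19. The mean of -0.27 ± 0.33 (SE, n = 5 mares, 0.828-fold, 95% confidence interval 0.498 to 1.37-fold, adjusted p = 0.945) therefore took its sign from mare 4, and without that mare it was 0.21 (adjusted p = 0.710; 0.870 when only its 2 day 8 samples were left out). The pregnancy effect at day 12 exceeded that at day 8 by 0.70 ± 0.45 (adjusted p = 0.597).

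The 9 other IL1RN probes, all of the same transcript, moved with the brightest one across samples, with Pearson correlations of 0.66 to 0.86 over the 22 arrays, which share mares and slides. At day 12 they differed by -0.05 to 0.46 between pregnant and control samples, with a median of 0.21, and at day 8 by -0.88 to -0.11 with a median of -0.57, measured values that include 3 probes above background on no day 8 pregnant array. The median of all tested probes was -0.02 at day 12 and -0.01 at day 8. In the mare numbered 4 on each day, which may not be the same animal, all 10 probes were lower in the pregnant sample. Median measured differences were -0.60 at day 12 and -3.04 at day 8. In mares 1, 2, 5 and 6 at day 8 the medians of the 10 probes were 0.09, 0.07, 0.32 and 0.03. In those mares 4, 3, 2 and 4 of the 10 probes were lower in the pregnant sample. The pregnant samples numbered 4 were well above background by 0 of the 9 dimmer probes on either day, and the controls numbered 4 by 4 probes at day 12 and 9 at day 8. These 9 probes therefore give only bounds at day 8, by which the pregnant sample was at least 2.73 to 5.12-fold lower. In mares 1 and 3 at day 12 all 10 were higher, with medians of 0.80 and 0.83. Mare 5 at day 12 was the one animal in which most probes went against the brightest, since 7 of the 10 were lower and the median of the 10 was -0.34. Its brightest probe was higher by 0.68. The sample of mare 4 was the lowest of the 6 day 12 pregnant samples by 10 of 10 probes, the lowest of the 5 day 8 pregnant samples by 10 of 10, and the highest of the 5 day 8 control samples by 10 of 10. In the day 12 controls mare 1 was likewise the lowest by 10 of 10.

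**Figure D2:**
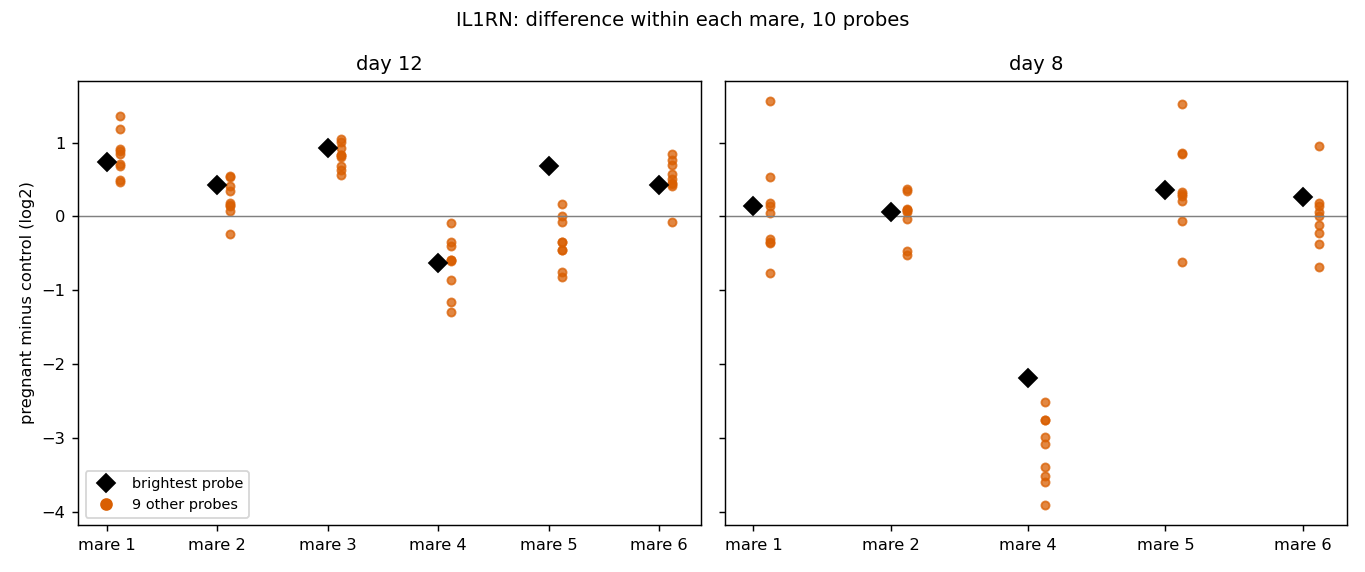
Pregnant minus control (y axis, log2) within each mare (x axis) for the 10 IL1RN probes at day 12 and at day 8, the brightest probe as a diamond and the 9 others as dots. In the mare numbered 4 on each day all 10 points lie below 0, between -3.90 and -2.19 at day 8, where its dots rest on a pregnant sample at background. In mare 5 at day 12 the diamond lies at 0.68 above most dots.

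IL1A, the ligand, spread widely between animals, mostly below the level at which its probe counted as well above background. The brightest probe ranged from -8.26 to -5.52 with a median of -7.55 in day 12 pregnant samples, against -9.84 to -5.94 with a median of -8.14 in day 12 control samples. The pregnant samples of mares 1, 3 and 6 and the control sample of mare 4 were the ones well above background at day 12. Within mares 1 to 6 the differences were 2.07, -0.98, 2.28, -1.59, 0.10 and 2.57. Their mean of 0.74 ± 0.59 (SE, n = 6 mares, 95% confidence interval -0.56 to 2.04, adjusted p = 0.656) rests on 12 values of which 4 were well above background. The other 2 probes gave the same signs in every mare at day 12, higher in mares 1, 3, 5 and 6 and lower in mares 2 and 4.

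At day 8 the IL1A probe read -7.28, -9.56, -9.10, -7.42 and -9.33 in the pregnant samples of mares 1, 2, 4, 5 and 6, none well above background, against -8.59, -9.39, -6.77, -8.18 and -9.48 in their controls. Only the control sample of mare 4 was well above background, by all 3 probes of the gene the highest of its group. The mean difference at day 8 was -0.06 ± 0.65 (SE, n = 5 mares, adjusted p = 0.996), with -2.33 in mare 4 and -0.17 to 1.31 in the others. No fold is given at day 8, because the control mean lay under the bound set by the dimmer group. The pregnancy effects of the 2 days differed by 0.80 ± 0.88 (adjusted p = 0.771).

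IL1R1, the signalling receptor, was measured in all samples and passed the test of pregnancy on neither day. It ranged from -4.62 to -3.40 with a median of -3.94 in day 12 pregnant samples, against -4.71 to -3.74 with a median of -4.23 in day 12 control samples, and the groups overlapped. The pregnant sample was higher in 5 of 6 mares, by 0.13, 0.45, 0.40, 0.27 and 0.91 in mares 1, 2, 4, 5 and 6, and stood at -0.88 in mare 3. The mean difference was 0.21 ± 0.18 (SE, n = 6 mares, 1.16-fold, 95% confidence interval -0.18 to 0.60, adjusted p = 0.671), and without mare 3 it was 0.43 (adjusted p = 0.0785). In that fit 977 of all tested probes passed at day 12, against 102 with mare 3 included. Pregnant samples of day 8 read -5.19, -4.19, -3.98, -3.88 and -4.04 in mares 1, 2, 4, 5 and 6, against -5.09, -4.22, -4.17, -4.33 and -4.21 in the controls. Mare 1 was the lowest by far in both groups, and its 2 samples differed by -0.11. The mean difference was 0.15 ± 0.19 (SE, n = 5 mares, adjusted p = 0.951), and the effects of the 2 days differed by 0.07 ± 0.26 (adjusted p = 0.948).

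**Figure D3:**
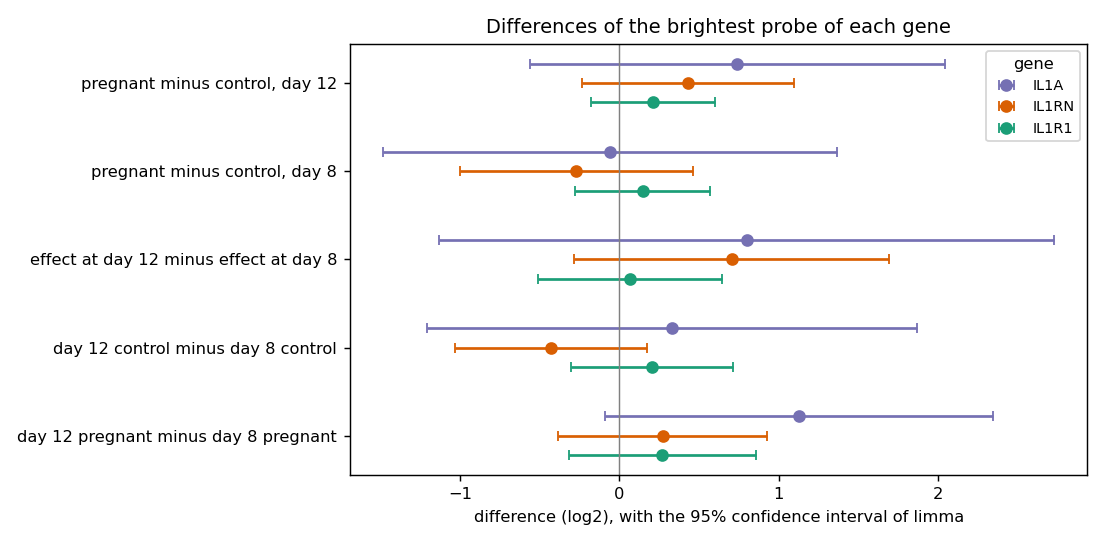
Difference (x axis, log2) of the brightest probe of IL1A, IL1RN and IL1R1 in 5 comparisons (y axis), with points for the fitted value and bars for the 95% confidence interval of limma. Every interval spans 0, and those of IL1A are the widest.

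Within slides the pregnancy effect on IL1RN at day 12 was 0.43 on the slide of mare 2, 0.68 on that of mare 5, 0.83 on that of mares 1 and 3 and -0.10 on that of mares 4 and 6. At day 8 it was 0.31 on the slide of mares 5 and 6 and 0.10 on that of mares 1 and 2, while the pair of mare 4 lay alone on its slide at -2.19, so that mare and slide cannot be told apart there. For IL1A the day 12 slide means were -0.98, 0.10, 2.17 and 0.49 in the same order and those of day 8 were 0.45, 0.57 and -2.33, the last for mare 4. For IL1R1 they were 0.45, 0.27, -0.38 and 0.65 at day 12 and 0.31, -0.04 and 0.19 at day 8.

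Between days, 0 member probes passed in control samples and 1 passed in pregnant samples. Of the 12 probes 0 passed between day 12 and day 8 controls, against 7.09% of all probes. An unadjusted p under 0.05 was reached by 0 of the 12, against 26.4% of all probes. The brightest IL1RN probe was lower at day 12, with a mean of -2.13 ± 0.38 (SD, n = 6) in day 12 controls and -1.70 ± 0.58 (SD, n = 5) in day 8 controls, a difference of -0.43 ± 0.28 (SE, adjusted p = 0.342). Of the other 9 probes 2 were also lower and 7 higher at day 12, from -0.14 to 0.37. IL1A differed by 0.33 ± 0.70 (adjusted p = 0.802) and IL1R1 by 0.20 ± 0.23 (adjusted p = 0.617). Pregnant and control samples of a day come from the same mares, and the comparisons of days share arrays with those of pregnancy.

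In pregnant samples 1 of the 12 member probes passed between day 12 and day 8, or 8.33%, against 24.3% of all probes, so the share among the members lay under that of the array. An unadjusted p under 0.05 was reached by 3 of the 12, against 38.8% of all probes. The member that passed was the dim IL1RN probe A_69_P004856, higher at day 12 with a bound of 1.64-fold (adjusted p = 0.0408 for the measured difference). It was well above background on 5 of 6 day 12 pregnant and 0 of 5 day 8 pregnant arrays. The bound sets the day 12 mean against a day 8 mean in which each array counts with the lowest signal well above background on it, or with the probe's own signal where that is higher. The day 12 mean is taken as measured, arrays not well above background included. The bound concerns these means alone and takes no account of the spread between mares. With a mare left out the bound was 1.47 to 1.91-fold. Measured means were -6.80 ± 0.56 (SD, n = 6) at day 12 and -7.76 ± 0.53 (SD, n = 5) at day 8, with ranges of -7.77 to -6.32 and -8.66 to -7.35 that overlapped through the day 12 sample of mare 4. The probe passed in 6 of 15 alternatives, with adjusted p from 0.0178 to 0.576. The call was lost without mare 2 (0.90, adjusted p = 0.0926), without mare 3 (0.92, adjusted p = 0.0771), without mare 5 (1.01, adjusted p = 0.0844), without mare 6 (0.87, adjusted p = 0.123) and without the day 8 samples of mare 4 (0.73, adjusted p = 0.0944).

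The other IL1RN probes did not pass between the days of pregnancy. All 10 had a higher measured mean at day 12, the 9 dimmer ones by 0.59 to 1.15. For the 3 that were well above background on 0 of 5 day 8 arrays the bounds on the means were 1.64, 1.36 and 1.39-fold. The probes with 1.36 and 1.39-fold were well above background on 4 of 6 day 12 pregnant arrays. Their 95% confidence intervals, from measured values, were 1.03 to 3.43-fold (adjusted p = 0.115) and 0.765 to 3.79-fold (adjusted p = 0.305). The brightest stood at 0.27 ± 0.30 (SE, adjusted p = 0.532) with means of -1.70 ± 0.44 (SD, n = 6) in day 12 pregnant and -1.97 ± 0.63 (SD, n = 5) in day 8 pregnant samples. IL1A did not pass (adjusted p = 0.157, 95% confidence interval 0.939 to 5.08-fold). It was well above background on 3 of 6 day 12 and 0 of 5 day 8 pregnant arrays. Its bound on the means of 1.47-fold rests on mare 6, without which the bound was 1.06-fold. IL1R1 differed by 0.27 ± 0.27 (adjusted p = 0.487). Ordered by mean, the brightest IL1RN probe ran from day 8 control (-1.70) through day 12 pregnant (-1.70) and day 8 pregnant (-1.97) to day 12 control (-2.13), and each step was smaller than the SD of the groups it joined. IL1R1 ran from day 12 pregnant (-3.99) through day 12 control (-4.20) and day 8 pregnant (-4.26) to day 8 control (-4.40). IL1A ran from day 12 pregnant (-7.41) through day 12 control (-8.15) and day 8 control (-8.48) to day 8 pregnant (-8.54), again with steps under those SDs.

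Some cell type markers also passed between the days of pregnancy, a comparison in which 24.3% of all probes passed. They were 1 of 4 measured monocyte and macrophage, 1 of 2 stromal and 1 of 2 blood genes. Of smooth muscle and endothelium 1 gene each was measured, and each passed. Of the 2 lymphocyte genes and the 1 epithelial gene 0 passed. The monocyte marker CD14 rose by 1.01 ± 0.15 (SE, adjusted p = 0.00183), and the other 3 measured members of its list of 10, CD68, ITGAX and LAPTM5, did not pass and stood lower, at -0.23, -0.61 and -0.17. The summed level of these 4 genes, in units of the array's 75th percentile, ranged from 9.42 to 12.3 in day 12 pregnant and from 9.13 to 12.2 in day 8 pregnant samples. The endothelial marker PECAM1 rose by 0.92 ± 0.19 (adjusted p = 0.00589) and the smooth muscle marker TAGLN by 0.84 ± 0.28 (adjusted p = 0.0462), whereas LUM fell (-0.63 ± 0.20, adjusted p = 0.0418) and so did the platelet integrin ITGA2B (-0.84 ± 0.14, adjusted p = 0.00283). Their part in the level of IL1RN was not tested. With 1 mare left out, CD14, PECAM1 and ITGA2B passed in 6 of 6 fits. TAGLN passed in 2 and LUM in 1, and the highest adjusted p among these fits was 0.178 for TAGLN and 0.107 for LUM. TAGLN lost the call without mare 2, 4, 5 or 6 and LUM without mare 1, 2, 4, 5 or 6. None of these markers passed between pregnant and control samples of a day.

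The other parts of the interleukin 1 pathway that the array names were few, and none passed the test of pregnancy on either day. Of 9 further ligands of the family 2 were measured. IL1B, the secreted form of interleukin 1, was well above background on all 22 arrays and differed by 0.33 ± 0.39 (SE, n = 6 mares, adjusted p = 0.773) at day 12 and by 0.32 ± 0.43 (n = 5 mares, adjusted p = 0.950) at day 8. The gene table gives this probe a locus identifier in place of a gene symbol, and it was read here as IL1B. Horses carry a pair of neighbouring IL1B loci, which hybridisation may not tell apart. IL1B was higher in the pregnant sample of 4 of 6 mares at day 12 and of 4 of 5 at day 8, with the mare numbered 4 lower on each day. IL18, a ligand of the same family that acts on lymphocytes, stood at -0.09 ± 0.19 (adjusted p = 0.874) at day 12 and at -0.32 ± 0.21 (adjusted p = 0.866) at day 8. Between days neither ligand passed, with adjusted p of 0.906 and 0.346 in controls and 0.845 and 0.660 in pregnant samples for IL1B and IL18 in that order.

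IL1R2, the decoy receptor that binds the ligand without signalling, was the measured gene of 8 further receptors. It was well above background on 7 arrays, 1 of 6 day 12 pregnant, 1 of 6 day 12 control, 2 of 5 day 8 pregnant and 3 of 5 day 8 control arrays. In controls it was lower at day 12, with a mean of -7.51 ± 0.29 (SD, n = 6) in day 12 and -6.64 ± 0.51 (SD, n = 5) in day 8 controls, a difference of -0.87 ± 0.24 (SE, adjusted p = 0.04996, just under the threshold). It passed in 1 of 15 alternatives, the fit without mare 5, with adjusted p from 0.0449 to 0.702. The call was lost with mare 1, 2, 3, 4 or 6 left out, with an adjusted p of up to 0.146, and over the 6 fits that left out a mare the difference ranged from -1.05 to -0.79. With pregnancy IL1R2 differed by 0.10 ± 0.51 at day 12 (adjusted p = 0.959) and by -0.34 ± 0.56 at day 8 (adjusted p = 0.964).

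CASP1, the protease that cuts the precursors of interleukin 1 beta and interleukin 18, was 1 of 14 processing genes measured and passed in none of the 5 comparisons. Of 28 genes of receptor signalling 3 were measured, the adaptors TAB2 and TAB3 and the transcription factor gene FOS, and 0 of 3 passed in any comparison. Their median difference was 0.12 at day 12 and 0.09 at day 8, where the median of all probes was -0.02 and -0.01.

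Genes that interleukin 1 induces in many cell types gave 19 tested members of a list of 29, and 0 of the 19 passed the test of pregnancy on either day. At day 12, 12 were higher and 7 lower with a median of 0.11, and at day 8, 7 were higher and 12 lower with a median of -0.11. PTGS2, the inducible cyclooxygenase of prostaglandin synthesis, was higher in 6 of 6 mares at day 12 (0.27 ± 0.11, SE, adjusted p = 0.354) and lower in 5 of 5 at day 8 (-0.37 ± 0.12, adjusted p = 0.833). The difference between these effects was 0.64 ± 0.17 (adjusted p = 0.258). IL6, a cytokine of acute inflammation, differed by 0.27 ± 1.07 (adjusted p = 0.943) at day 12 and by 0.35 ± 1.17 (adjusted p = 0.987) at day 8. The neutrophil attractant CXCL8 differed by -0.29 ± 0.72 (adjusted p = 0.903) and -1.48 ± 0.78 (adjusted p = 0.848) on those days. TNF, which shares many targets with interleukin 1, stood at -0.09 ± 0.15 (adjusted p = 0.850) at day 12 and was lower in 5 of 5 mares at day 8 (-0.42 ± 0.16, adjusted p = 0.833).

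Between the days of pregnancy 3 of the 19 passed, 1 higher and 2 lower at day 12, or a share under the 24.3% of all probes. The chemokine gene CXCL10 rose by 0.59 ± 0.20 (SE, adjusted p = 0.0475), while the secreted phospholipase gene PLA2G2A fell (-1.39 ± 0.40, adjusted p = 0.0278) and so did TLR2, a receptor for bacterial lipoproteins (-0.48 ± 0.14, adjusted p = 0.0334). CXCL10 passed in 5, PLA2G2A in 9 and TLR2 in 6 of 17 alternatives, with adjusted p of up to 0.700, 0.123 and 0.862. CXCL10 lost the call without mare 1, 2, 5 or 6, PLA2G2A without mare 4 or 6, and TLR2 without mare 2, 4, 5 or 6. The count also moved with the animals included, to 5 without mare 1, 1 without mare 4, 1 without mare 5 and 0 without mare 6 or without the day 8 samples of mare 4. Between controls 0 of 19 passed.

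In mare 4 at day 8 IL1A, IL1RN and several inflammatory genes were lower in the pregnant sample, while the receptor genes IL1R1 and IL1R2 were not. All 3 IL1A probes and all 10 IL1RN probes were lower, and so were IL1B (-0.78), IL18 (-1.20) and CASP1 (-0.74), while IL1R1 stood at 0.19 and IL1R2 at 0.59. Of the 19 induced genes 16 were lower and 3 higher with a median of -0.48, where the medians of mares 1, 2, 5 and 6 were -0.19, 0.12, -0.02 and 0.01. Mare 4 had the lowest difference of the 5 mares for 11 of the 19. The same shares over all probes of the array were not computed. Once group means were taken off, the 2 day 8 arrays of mare 4 correlated at 0.32 over 31038 probes. The other day 8 pairs correlated at 0.50 to 0.82. CXCL8 was at least 21.4-fold and IL6 at least 39.3-fold lower in the pregnant sample, where neither was well above background (measured differences -6.03 and -5.73). IL1A, at background there too, was at least 2.17-fold lower. CCL2, a monocyte attractant, differed by -2.75.

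For several of these genes the control sample of mare 4 stood above the other controls of day 8. It read -2.59 for IL6 and -3.47 for CXCL8, above the -9.31 to -7.28 and -9.49 to -6.33 of the other 4 day 8 controls, and -0.73 for CCL2, above their -4.98 to -2.66. Its IL1A and IL1RN values were also above all other day 8 controls. Those of IL1B (-2.24), IL1R1 (-4.17) and IL1R2 (-6.27) exceeded the next highest control only narrowly (-2.41, -4.21 and -6.31). Its IL18 value was within the range of the other day 8 controls, and its TNF value of -1.97 was below theirs (-1.70 to 1.17). In its pregnant sample IL1RN, IL6, CXCL8 and IL18 were below all other day 8 pregnant samples, CXCL8 at background there, whereas IL1A, IL1R1, IL1B, TNF and CCL2 were within their range and IL1R2 (-5.68) was above it. The summed level of the 4 measured macrophage genes was 9.19 in the pregnant and 12.1 in the control sample of mare 4, and the control value was the highest of the 5 day 8 controls, which began at 7.94. The summed level of the 2 measured lymphocyte genes, CD2 and GZMB, of a list of 13 was 2.11 in the pregnant and 3.54 in the control sample of mare 4, the lowest of 5 pregnant samples and the fourth of 5 controls. Of 12 neutrophil and 5 B cell markers 0 are named on the array, and the part of any of these cells in the values was not tested. At day 12 the mare numbered 4, not known to be the same animal, had lower CCL2 (-1.62) in its pregnant sample. IL6 and CXCL8 were at background in that sample and at least 8.61-fold and 1.75-fold lower. The induced genes of this day 12 mare split into 10 lower and 9 higher with a median of -0.14.

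**Figure D4:**
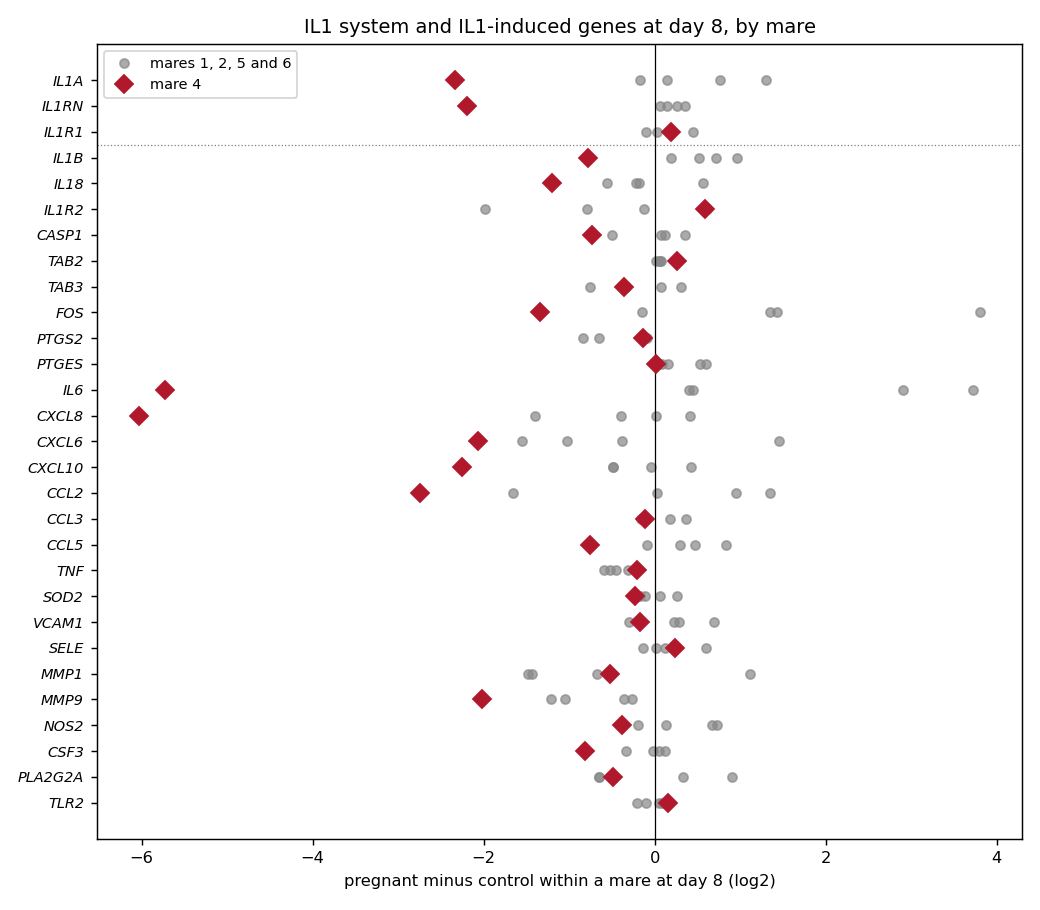
Pregnant minus control at day 8 (x axis, log2) for the 3 member genes above the dotted line and 26 tested pathway genes under it (y axis), with mare 4 as red diamonds and the other 4 mares as grey dots. The diamonds of CXCL8 and IL6 lie lowest, with the pregnant sample at background, that of IL1RN lies at -2.19 apart from its dots, and that of IL1R1 lies among them.

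The named genes whose levels ran most like those of a member were ranked by Pearson correlation over the 22 arrays, as a description of arrays that share mares and slides. Among 603 named genes those most like IL1RN were CCL8 and CCL2, a pair of monocyte attractants (0.67 and 0.66), and CXCL8 (0.62). With the group means removed the correlations were 0.72, 0.67 and 0.69, and without the 2 day 8 samples of mare 4 they were 0.67, 0.64 and 0.45. CXCL8 was well above background on 12 of 22 arrays. IL1R1 ran most like WBP11 (0.80), the beta-catenin gene CTNNB1 (0.74) and TMEM255A (0.71), with 0.85, 0.70 and 0.74 once group means were removed. IL1A was above background on too few arrays to be ranked, since at least 11 were required.

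**Figure D5:**
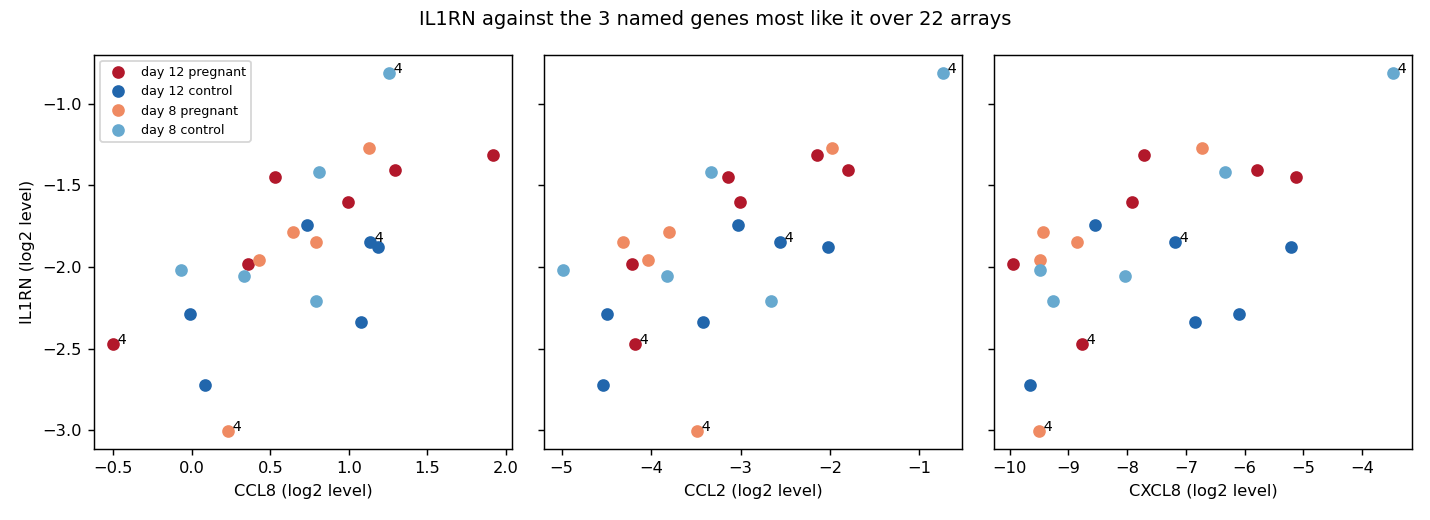
Level of IL1RN (y axis) against CCL8, CCL2 and CXCL8 (x axes), all log2 with 0 at the 75th percentile of an array, in 22 samples coloured by group, with the samples of mare 4 numbered. The day 8 control of mare 4 has the highest IL1RN, CCL2 and CXCL8 of all 22 samples, and its day 8 pregnant sample the lowest IL1RN.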

How the data were processed

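Total RNA of 22 endometrial biopsies had been copied to Cy3-labelled cRNA and hybridised in 1 colour to Agilent arrays of horse probes; this comes from the protocols, per the labels. The spot intensity used here is the processed signal of the authors' Feature Extraction software. Its version was 10.5.1.1 for day 12 and 10.7.3.1 for day 8 arrays, per the file headers, while 10.5.1.1 alone is given per the submitters' processing notes. That signal is already background-subtracted. The authors' deposited value table, read as log2 because it rose with the log2 scanner intensity (correlation 0.986 to 0.997), served as an alternative; its normalisation is not given in the sources used here.

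The log2 intensity was taken minus the array's 75th percentile over non-control spots, non-uniform outlier spots were left out and spots of a probe averaged. No spot was saturated, and the number of arrays limits the precision. Probes well above background on at least 5 of 22 arrays were tested by lmFit and eBayes of limma 3.58.1 under R 4.3.3, two-sided, with Benjamini-Hochberg adjustment over all probes. Pregnancy effects came from 1 fit of all arrays blocked by mare within day. Days were compared in fits of the 11 control and the 11 pregnant arrays without covariates. The fits were tested on simulated data.

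The labels pair the pregnant and control sample of a mare. Once group means were taken off, the 2 arrays of a mare had correlations of 0.289 to 0.725 on day 12 and 0.321 to 0.817 on day 8. Symbols were looked up by unversioned accession in a RefSeq gene table (assembly TB-T2T): 1394 probes had 1 symbol, 1 probe several, and the rest none. The normexp alternative used the median foreground and background signals; mean signals were not used here.

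The brightest member probe by mean over all arrays stands for its gene. List and marker genes are named if they passed in any comparison or are family ligands or receptors, together with PTGS2, IL6, CXCL8 and TNF; other genes named with mare 4 were chosen after their values were seen. Members, lists and tests were chosen with earlier results of these data known. Alternatives varied background correction, scaling, filter, prior, block, probe averaging and the mares included. A mare left out was left out by its number on both days, except where only the day 8 samples are named.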

Additional observations from a re-analysis of the deposited data

Results flagged for a closer look

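In 98 groups of 5 or 6 values, the levels of the 14 member probes by group and the differences within mares of these probes and of 7 pathway genes by day, the highest or lowest value was set against the rest by Dixon's criterion, with limits of 0.625 for 6 values and 0.710 for 5. Chance gives about 1 such value in 20 groups, probes of a gene are not independent, and 17 values stood out, 14 of them from mare 4 and 13 of those at day 8.

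For IL1RN the difference of the brightest probe in the mare numbered 4 lay far below that of the other mares of each day, at -0.62 at day 12 and -2.19 at day 8. Whether this number is 1 animal is not known. Of the 9 dimmer probes 7 had a far value in mare 4 at day 8, of -2.76, -2.99, -3.09, -3.52, -2.75, -3.60 and -3.90, measured against a pregnant sample in which none of them was well above background, so that only the bounds of at least 2.73 to 5.12-fold lower hold over the 9 probes. The level itself was far below the other day 8 pregnant samples in mare 4 by 3 of these probes, at -9.43, -9.25 and -9.59, all at background. A second IL1A probe differed by -2.36 in mare 4 at day 8, and CXCL8 by -6.03, both likewise at background in the pregnant sample. The pair of mare 4 lay alone on its slide at day 8, and the part of slide and of animal in these values cannot be told apart.

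The remaining far values were the IL1A level of -5.52 in the day 12 pregnant sample of mare 6, and the IL1R1 levels of -5.19 in the pregnant and -5.09 in the control sample of mare 1 at day 8. PTGS2 was higher with pregnancy in every mare at day 12 and lower in every mare at day 8, and its effects differed by 0.64 (adjusted p = 0.258 in limma's test of the difference), so the opposite directions did not pass that test.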

How the results depend on the processing

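The 15 member results (3 genes, 5 comparisons) were recomputed in 257 alternative fits. In 246 of them the direction and the side of the threshold were kept, 11 changed direction, and 0 passed the threshold, with a smallest adjusted p of 0.0509. The pregnancy effect on IL1A at day 8 became 0.0573 with quantile normalization and ranged from -0.40 to 0.51 with a mare left out. IL1A in day 12 minus day 8 controls became -0.10 with normexp and ranged from -0.0727 to 0.76 with a mare left out. The pregnancy effect on IL1RN at day 8 ranged from -0.43 to 0.21 with a mare left out, positive only without mare 4, and IL1RN in controls became 0.0555 as the mean of all probes of the gene. The difference of the pregnancy effects for IL1R1 became -0.0421 with quantile normalization and ranged from -0.0672 to 0.29. The cause of these changes was not tested beyond the mares named.

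Of the 12 member probes 1 passed between day 12 and day 8 pregnant samples, against 0 with normexp, the trended robust prior, the slide as a random block or all 22 arrays with the mare as a random block, and 2 with quantile normalization, with the percentile over probes detected on all arrays or with no filter. With the filter on all 22 arrays and in the authors' value table it was 0, where A_69_P004856 is not tested. With a mare left out it was 0 to 3, and with the mare number as a replicate block 3. Same-numbered arrays of the 2 days correlated at -0.15 to 0.34, negative for mare 2 alone, and 4 of 10 arrays correlated best with their own number, which does not settle whether the numbers pair them. Without the replicate block no member result of pregnancy changed its call or sign (IL1RN at day 12 stayed at 0.43).

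With normexp the pregnancy effect at day 12 had a median of 0.33 over all probes, and relative to it IL1RN was higher by 0.31, IL1R1 by 0.29 and IL1A by 0.48. Counts over all probes varied widely, from 9 to 977 at day 12 (main 102, 81 higher and 21 lower; with normexp 13 and 0), from 0 to 33 for the difference of effects (main 4), from 31 to 5239 in controls (main 2727) and from 389 to 9842 in pregnant samples (main 9332). The signal over background limits IL1A and the 9 dim IL1RN probes.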

Other observations

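FOS, an early response gene downstream of interleukin 1 and of many other stimuli, chosen here after its values were seen, varied widely between animals. Its level spanned 2.35 to 6.24 in day 12 pregnant samples, against 0.58 to 5.68 in day 12 controls, and 1.67 to 5.67 in day 8 pregnant samples, against -2.14 to 5.49 in day 8 controls, the highest of which was the sample of mare 4. Its pregnancy effect was 1.64 ± 0.81 (SE, n = 6 mares, adjusted p = 0.441 in limma's test) at day 12 and 1.02 ± 0.89 (n = 5 mares, adjusted p = 0.906) at day 8. NOS2, the inducible nitric oxide synthase and likewise chosen after its values were seen, was higher at day 12 by 0.78 ± 0.26 (adjusted p = 0.241) and at day 8 by 0.19 ± 0.28 (adjusted p = 0.957).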
